A study of Saccharomyces cerevisiae with 24 samples.

Results

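The change from acute to adapted hypoxia was measured as the difference in mRNA level between 240 min and 30 min in nitrogen gas, with each 240 min library set against the 30 min library of the same time course. The comparison was between 6 of the 24 libraries of the series, 3 at each time. It covered every one of the 7140 features in the deposited count tables, of which 6262 had enough reads to be tested. The spread between libraries used in the test was estimated from all 24. All cells were Saccharomyces cerevisiae strain yMH914, a MATa strain of the S288C background with the genotype ura3D0 his3D200 leu2D0 lys2-128d and a repaired HAP1 gene. The comparison held no second strain and no aerobic library. Each of the 3 courses, numbered here as the replicate labels number them, grew in rich medium (YPD) with no ergosterol or Tween added and was sampled 8 times, at an aerobic start (0 min) and then between 5 and 240 min of nitrogen, and polyadenylated RNA was sequenced. Per the study's methods, the flasks for later times were diluted from the starting culture so that each reached mid-log phase at its own time. Both 30 and 240 min therefore follow that dilution, but by different lengths of time, and the time since dilution and the time in nitrogen cannot be told apart. The labels do not say whether the 3 courses began from separate cultures, so p-values measure only the spread between the 24 libraries fitted.

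When oxygen is removed, yeast cells lose respiration and also the reactions that need molecular oxygen as a substrate, which include steps in the making of heme, ergosterol and unsaturated fatty acids. Both a fast and a slow response are known from earlier work on this organism. The fast one, shared with many other stresses, raises genes for trehalose, glycogen and protein protection through the factors Msn2 and Msn4 and lowers the genes for ribosome production. The slower one follows the fall of heme and sterols, through the activator Hap1, the repressor Rox1 and the sterol sensor Upc2, and replaces the proteins of the aerobic cell wall, sterol pathway and mitochondria.

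Library totals ran from 7073020 to 14396237 counts, with a median of 8442727, so the level of each gene is given as CPM, its count scaled to a common library size with trimmed-mean (TMM) factors. Course 1 stood apart from courses 2 and 3 at both times. Its log2 CPM correlated with theirs at r between 0.852 and 0.877 across features, against 0.968 at 30 min and 0.981 at 240 min between courses 2 and 3, and its 10 most abundant genes held 9.72% and 8.69% of counts, against 13% to 18% in the other 4 libraries. The test held a term for the course, since libraries were matched by course number. Many counts of genes that moved by more than 1.5 times without that term, or without 1 course, are given as well, but not all. The 3 labelled deletions URA3, HIS3 and LEU2 summed to 0 counts in each 30 min library and to no more than 2 in any 240 min library, and the 6 a-cell genes summed to between 1327 and 2404 CPM against 33.2 to 48.0 CPM for the 4 alpha-cell genes. The 6 genes fixed as markers of low oxygen (ANB1, COX5B, HEM13, DAN1, TIR1 and AAC3) summed to between 783 and 812 CPM at 30 min and between 10845 and 14642 CPM at 240 min. TIR1 was the largest part, with a mean of 6981 CPM at 240 min. COX5B alone did not rise, with means of 264 CPM at 30 min and 207 CPM at 240 min. The 4 markers lower in low oxygen (CYC1, COX5A, NDE1 and CYT1) summed to between 156 and 472 CPM at 30 min and between 40.9 and 84.4 CPM at 240 min.

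At 240 min, 295 features were higher than at 30 min, which is 4.71% of the 6262 tested, and 330 were lower, which is 5.27%, so that 9.98% were called in either direction. A feature was called where edgeR's quasi-likelihood F-test gave a Benjamini-Hochberg adjusted p under 0.05 and the change was at least 2-fold. Large changes were few in either direction. Changes of at least 4-fold were found for 57 of the higher and 95 of the lower features, and of at least 8-fold for 34 and 30. Of the higher features 292 moved the same way in all 3 courses, and of the lower 325. The median log2 fold change over all features tested was 0.01. Without the course term 200 features were called higher and 188 lower, and of the lower ones 186 were among the 330. The plot of change against level shows the cell wall mannoproteins at the upper edge and the genes of the aerobic wall, hexose transport and stress at the lower edge.

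**Figure D1:**
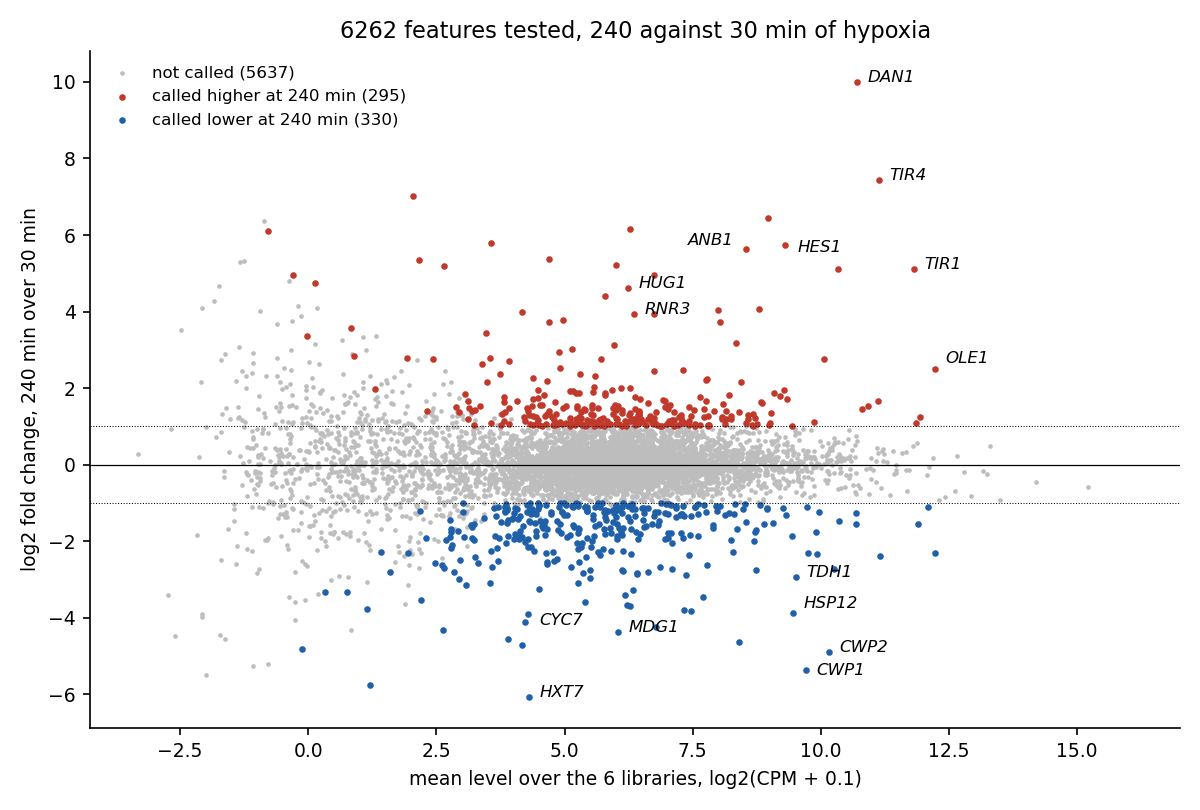
Log2 fold change at 240 over 30 min (vertical axis) against the mean level over the 6 libraries on a log2 CPM scale (horizontal axis) for each of the 6262 features tested, with the 295 called higher in red and the 330 called lower in blue. DAN1 stands highest, at 10.01, and HXT7 lowest, at -6.07; dotted lines mark 2-fold.

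The general stress genes, the set that Msn2 and Msn4 raise under many stresses, fell between 30 and 240 min. Of 38 members tested 26 were called lower and none higher, against 5.27% of all features called lower, and their median log2 fold change was -1.41 where that of all features was 0.01. Summed over the list, the level was 13115, 17958 and 24802 CPM at 30 min in courses 1, 2 and 3, and 5820, 9743 and 9963 CPM at 240 min. No 240 min library reached the level of any 30 min library, and the levels at 0 min, 1069 to 1453 CPM, lay far below both. The call depended on the course term, since 11 of the 38 were called lower without it.

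HSP12, which encodes a small membrane-stabilising heat shock protein, showed the largest fall in the list. It stood at 1854, 698 and 1343 CPM at 30 min and at 198, 61.8 and 38.9 CPM at 240 min. The groups did not overlap, course 1 was the highest library at each time, and the log2 fold change was -3.86 ± 0.52 (SE; edgeR adjusted p = 8.4e-06). DDR2, a small stress-induced gene, went from 135, 89.4 and 206 CPM to 15.2, 7.73 and 9.81 CPM, a log2 fold change of -3.69 ± 0.47. SOL4, whose product acts in the pentose phosphate pathway, went from 48.7, 60.3 and 125 CPM to 6.55, 4.92 and 7.08 CPM, a log2 fold change of -3.59 ± 0.39. Both were well separated between the times in every course. MSC1, named in the study, went from 492, 355 and 717 CPM to 121, 100 and 83.4 CPM (log2 fold change -2.29 ± 0.31). For none of these 4 genes had the level returned to that at 0 min, where the means were 14.6 CPM for HSP12, 2.03 for DDR2, 2.23 for SOL4 and 24.6 for MSC1. The stretch upstream of HSP12 is shown because it holds the stress response element (STRE, CCCCT on either strand) to which Msn2 and Msn4 bind. It covers bases -250 to -51 from the start of the annotated gene, chrVI:107006-107205 of build R64, plus strand, as read from the RefSeq genome, with the STRE matches in capitals at -232 and -190.
HSP12: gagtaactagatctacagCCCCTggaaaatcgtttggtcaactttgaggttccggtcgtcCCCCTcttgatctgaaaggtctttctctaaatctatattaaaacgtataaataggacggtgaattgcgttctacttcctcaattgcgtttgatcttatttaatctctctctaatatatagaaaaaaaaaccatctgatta

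Of 18 genes for glycogen and trehalose 10 were lower and none higher, with a median of -1.12, but 1 member was called without the course term. TSL1, a subunit of trehalose synthase, stood at 562, 1142 and 1545 CPM at 30 min and at 153, 378 and 355 CPM at 240 min, a log2 fold change of -1.86 ± 0.35 (edgeR adjusted p = 0.00031; 0.093 without the course term). GSY2, a glycogen synthase, went from 370, 721 and 834 CPM to 95.0, 241 and 251 CPM (log2 fold change -1.75 ± 0.33; edgeR adjusted p = 0.088 without the course term). In both genes course 1 was the lowest library at each time, and all 3 courses fell. GSY1, the second glycogen synthase gene, was not called, at a log2 fold change of -0.76 ± 0.36.

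Over all features 5.27% were called lower. Among the regulators of stress and of protein kinase A, 2 of 19 were lower. These were XBP1, a stress-induced repressor (log2 fold change -2.16 ± 0.57; edgeR adjusted p = 0.087 without the course term and 0.053 without course 3), and PDE1, a cAMP phosphodiesterase (-1.07 ± 0.22), which fell short of 2-fold without course 1 (-0.86) and without course 2 (-0.99). Few chaperone genes were called. Of 19 cytosolic and nuclear chaperones of the Hsf1 set only HSP26 and SSA4 were lower, at log2 fold changes of -2.14 ± 0.39 and -1.72 ± 0.40, and the median was -0.22. SSA4 was not called without the course term (edgeR adjusted p = 0.11) or without course 2 (edgeR adjusted p = 0.054). None of 7 mitochondrial chaperones was called, and HSP60 stood at 391, 1199 and 941 CPM at 30 min against 408, 924 and 872 CPM at 240 min. At an adjusted p under 0.05 with no fold minimum the count for these 7 was also 0.

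Ribosome assembly factors moved the other way. Of 133 tested 47 were called higher and none lower, with a median log2 fold change of 0.86, and 131 of the 133 had a positive value. With no fold minimum 112 passed the adjusted p. The summed level was 8761, 10476 and 9268 CPM at 30 min and 15597, 17374 and 17714 CPM at 240 min, so that each course rose and the groups were apart. This was a partial return, since the same sum at 0 min was 37703, 62374 and 63401 CPM. The return did not continue to 240 min. At 120 min the sum was 21272, 20738 and 20633 CPM, above the 240 min level of the same course in each case. The count of 47 became 31 without course 3.

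DHR2, a nucleolar RNA helicase, showed the largest rise in that list. Its level was 7.40, 15.2 and 4.41 CPM at 30 min and 25.7, 34.3 and 46.3 CPM at 240 min, against a mean of 242 CPM at 0 min. The groups did not overlap, and course 3 was the lowest library at 30 min and the highest at 240 min (log2 fold change 1.95 ± 0.33; edgeR adjusted p = 0.00013). LTV1, which serves export of the small subunit, went from 27.7, 29.7 and 15.5 CPM to 88.0, 94.5 and 77.0 CPM (log2 fold change 1.87 ± 0.25). RRP36, an early processing factor, had a log2 fold change of 1.88 ± 0.25 and was not called without the course term (edgeR adjusted p = 0.11). The upstream stretch of DHR2, bases -250 to -51 at chrXI:288595-288794 of R64, plus strand, is shown because it holds the PAC motif (GATGAG on either strand), a promoter element of ribosome production genes. The capitals mark 3 overlapping PAC matches at -76, -71 and -66.
DHR2: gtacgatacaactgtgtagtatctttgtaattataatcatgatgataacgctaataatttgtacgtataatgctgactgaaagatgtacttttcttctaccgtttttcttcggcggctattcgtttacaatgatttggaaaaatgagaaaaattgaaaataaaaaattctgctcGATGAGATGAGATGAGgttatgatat

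Of 19 subunits of RNA polymerases I and III, which transcribe ribosomal RNA and tRNA, 4 were called higher and none lower, and the median was 0.59. These 4, RPA190, RPA135, RPC34 and RPC25, lay between 1.00 and 1.15, close to the 2-fold minimum, and none was called without course 3 and 1 without the course term. Of 137 ribosomal protein genes none was called in either direction (edgeR; 4 higher and 2 lower by adjusted p with no fold minimum) and the median was 0.04. Their summed level was 147923, 112411 and 94596 CPM at 30 min and 148688, 109644 and 107908 CPM at 240 min, against 213947 to 219245 CPM at 0 min, so that both times stood below the aerobic level. Of 24 translation factors the one called was HYP2, the aerobic form of eIF5A, where 5.27% of all features were called lower. It fell from 2286, 2430 and 2627 CPM to 828, 914 and 756 CPM, a log2 fold change of -1.55 ± 0.13 (edgeR adjusted p = 6.9e-09).

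**Figure D2:**
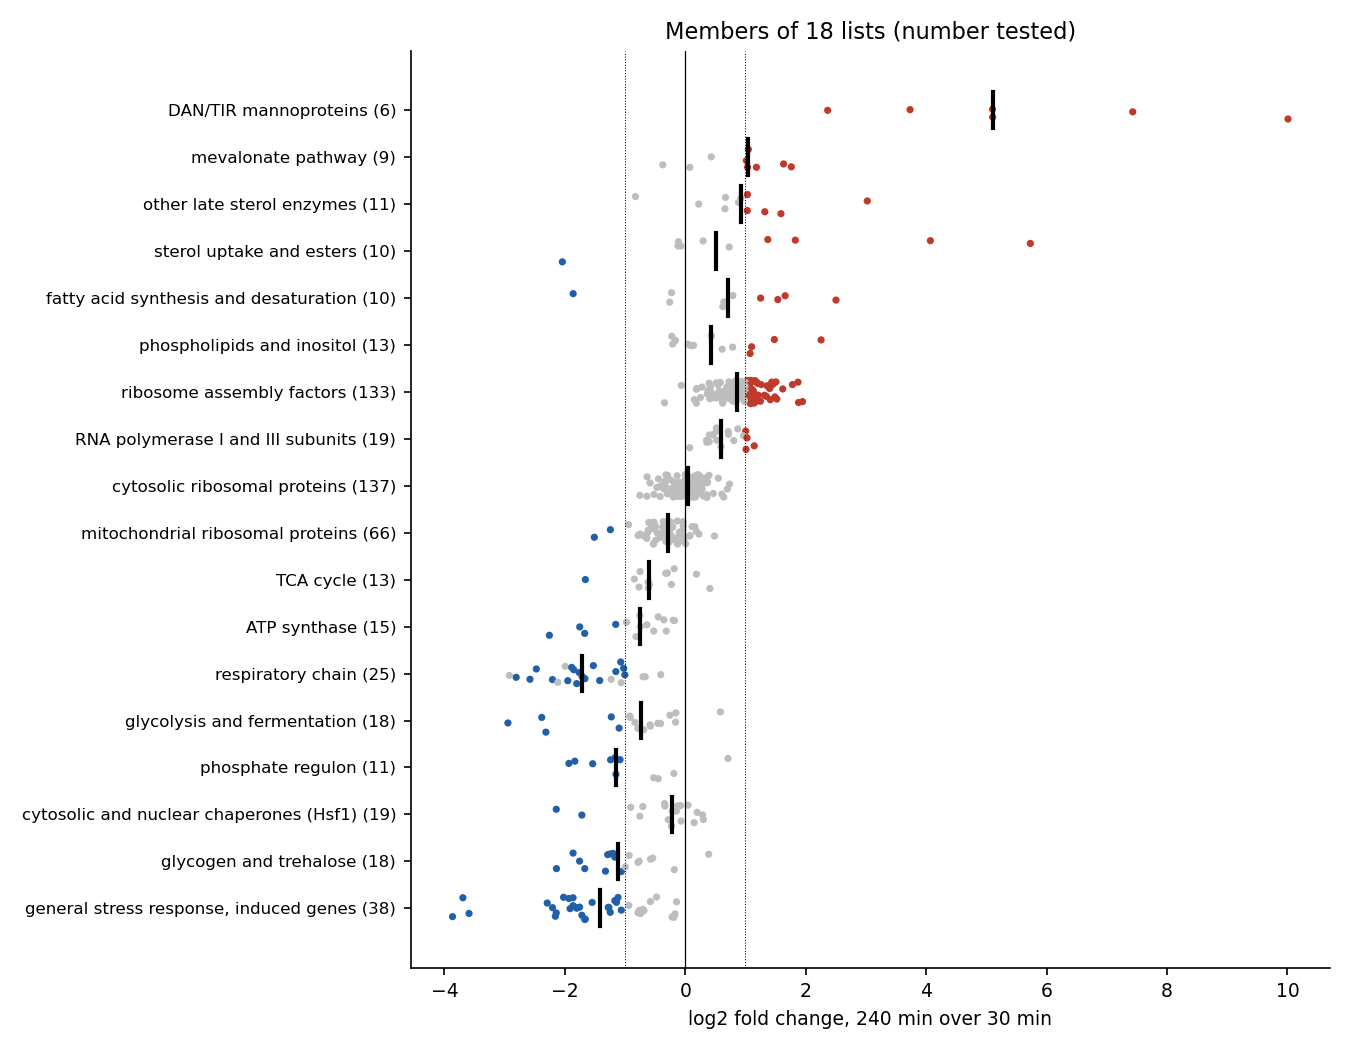
Log2 fold change at 240 over 30 min (horizontal axis) for each tested member of 18 gene lists, with the number tested in brackets; red points were called higher, blue called lower, grey not called, and the black bar is the list's median. Ribosome assembly factors centre on 0.86 while ribosomal proteins centre on 0.04, and the stress genes and the respiratory chain lie below 0.

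Promoter letters were searched over all 6001 annotated genes, in the window from 250 bases before to 50 bases after the gene start, on both strands. A match is a description of letters and not a binding site. STRE was present in 42.5% of the promoters of genes called lower and 13.7% of those called higher, with 21.6% of all promoters holding it, and in 71.1% of the 38 stress genes. PAC was present in 45.9% of the promoters of genes called higher and 12.4% of those called lower, with 20.4% over all, and in 91.0% of ribosome assembly factors. A second element of the same genes, RRPE (AAAATTT), was in 39.4% of the higher and 16.8% of the lower, with 23.2% over all, and in 94.0% of ribosome assembly factors. PAC was in 84.2% of RNA polymerase I and III subunits and in 10.9% of ribosomal protein genes, of which none was called. The CCAAT box, to which the Hap2/3/4/5 complex binds, was in 80.0% of the 25 respiratory chain genes and in 43.3% of all promoters. Over the calls it differed little from that, at 45.4% of the genes called lower and 39.0% of those called higher. STRE was in 48.0% of the respiratory chain genes as well. The search does not correct for the base composition of promoters or for overlap between motifs.

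**Figure D3:**
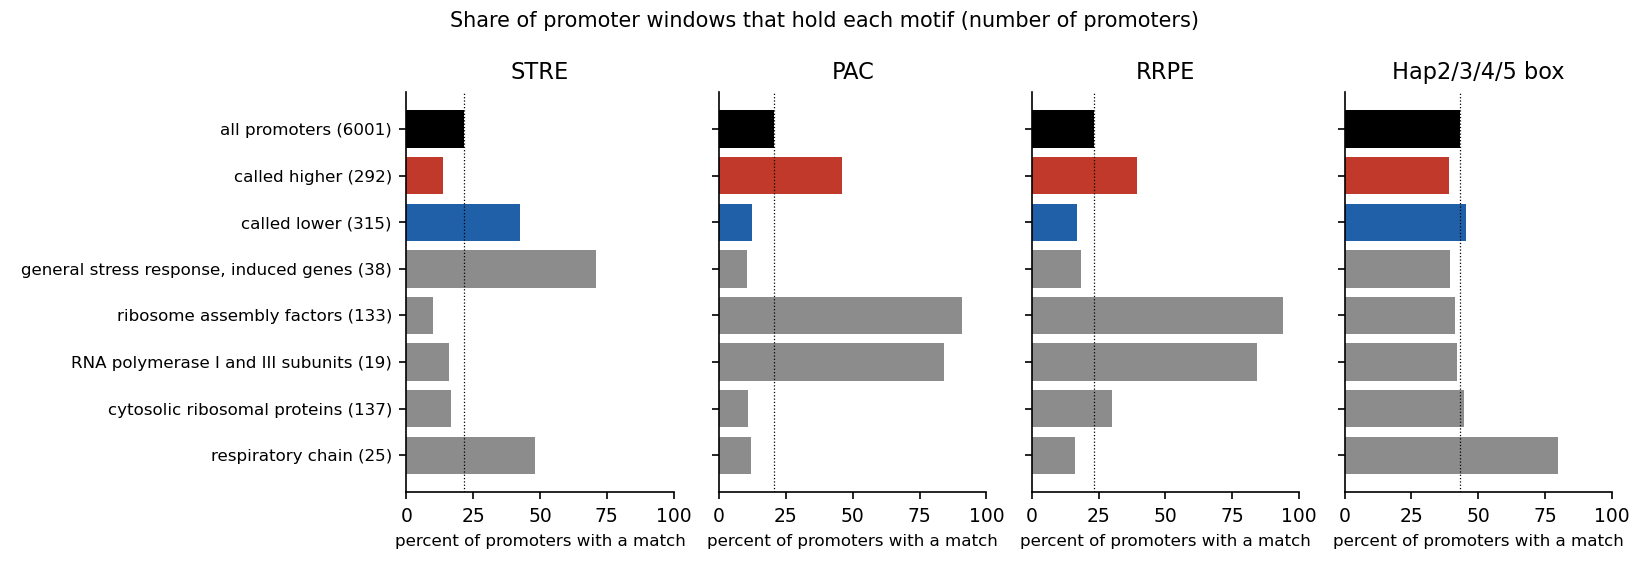
Percent of promoter windows with at least 1 match (horizontal axes) to each of 4 motifs, for all 6001 promoters (black), the genes called higher (red) and lower (blue) at 240 min, and 5 lists (grey), with the number of promoters in brackets. PAC and RRPE are found in 91.0% and 94.0% of ribosome assembly factors, and STRE in 71.1% of the stress genes.

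The DAN and TIR genes encode mannoproteins that are placed in the wall of anaerobic cells, and all 6 were called higher, with a median log2 fold change of 5.10. Their summed level was 227, 341 and 541 CPM at 30 min and 13242, 20732 and 19366 CPM at 240 min, while at 0 min it was 102 to 199 CPM. Most of the rise came after 30 min, with 943 to 1840 CPM at 60 min and 4773 to 10261 CPM at 120 min.

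DAN1 showed the largest change of any feature called. It stood at 1.13, 4.96 and 5.24 CPM at 30 min and at 1921, 3624 and 4408 CPM at 240 min. Course 1 was lowest at both times, and the log2 fold change was 10.01 ± 0.69 (edgeR adjusted p = 4.5e-10). TIR4 went from 16.7, 23.5 and 37.2 CPM to 2890, 5799 and 4634 CPM (log2 fold change 7.43 ± 0.35). TIR3 and TIR1 rose 34.4-fold each, TIR1 from 150, 203 and 283 CPM to 6356, 7380 and 7207 CPM. At 30 over 0 min the log2 fold change was 2.47 for TIR1, 0.71 for TIR3, -0.09 for TIR4 and -1.3 for DAN1. DAN4 and TIR2 had log2 fold changes of 3.73 ± 0.32 and 2.37 ± 0.27. The upstream stretch of DAN1, bases -250 to -51 at chrX:709758-709957 of R64, minus strand, is shown for TCGTATA, the letters searched for the sterol sensor Upc2. Other forms of its site were not searched. In capitals is a match on the opposite strand, which reads TATACGA here, at -203. The letters were found in 33.3% of the 6 DAN and TIR promoters, which is 2 promoters, and 4.1% of all promoters. They were in 6.51% of the promoters of genes called higher and in 6.35% of those called lower. The core of the Rox1 site (ATTGTTC) was also in 2 of the 6, against 7.65% of all promoters.
DAN1: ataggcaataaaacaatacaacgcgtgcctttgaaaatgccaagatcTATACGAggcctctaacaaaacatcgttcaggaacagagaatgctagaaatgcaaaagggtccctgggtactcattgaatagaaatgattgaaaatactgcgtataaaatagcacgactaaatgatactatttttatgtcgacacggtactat

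The PAU genes, a large family of near-identical seripauperins related to the TIR genes, have 24 named members, of which 6 were called higher. Only 9 of the 24 passed the filter on low counts, which a gene can pass through its 240 min reads alone. Reads that align equally well to several places were not counted, so values for this family cover only the parts of each gene that differ, and are uncertain. PAU23 stood at 3.8, 5.05 and 0.953 CPM at 30 min and 101, 136 and 136 CPM at 240 min. PAU2 stood at 1.34, 0.389 and 0 CPM and then at 30.5, 22.8 and 15.1 CPM. PAU9 had 0, 0.194 and 0 CPM at 30 min and 9.77, 8.85 and 5.25 CPM at 240 min, too few reads at 30 min for a fold to be given. Without the course term 2 members were called, and 3 without course 2.

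Of 9 mannoproteins and other proteins of the aerobic wall 4 were lower and none higher. CWP2 stood at 1710, 1768 and 3176 CPM at 30 min and at 88.0, 82.3 and 54.8 CPM at 240 min, a 29.5-fold fall (log2 fold change -4.88 ± 0.25; edgeR adjusted p = 3.4e-12). CWP1 went from 592, 1188 and 3128 CPM to 30.1, 33.2 and 40.4 CPM (log2 fold change -5.37 ± 0.54). The mean level at 0 min was 2321 CPM for CWP2 and 85.4 CPM for CWP1, so that log2 fold changes at 30 over 0 min were -0.06 and 3.86. CCW22, a wall protein gene outside this list, went from 507, 439 and 1001 CPM to 32.2, 29.1 and 17.6 CPM (log2 fold change -4.64 ± 0.33). The others called in the list were SED1 at -1.56 ± 0.22 and PIR3 at -1.86 ± 0.41, and 2 of the 9 were lower without the course term. PIR3 was also not called without course 3 (edgeR adjusted p = 0.057).

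**Figure D4:**
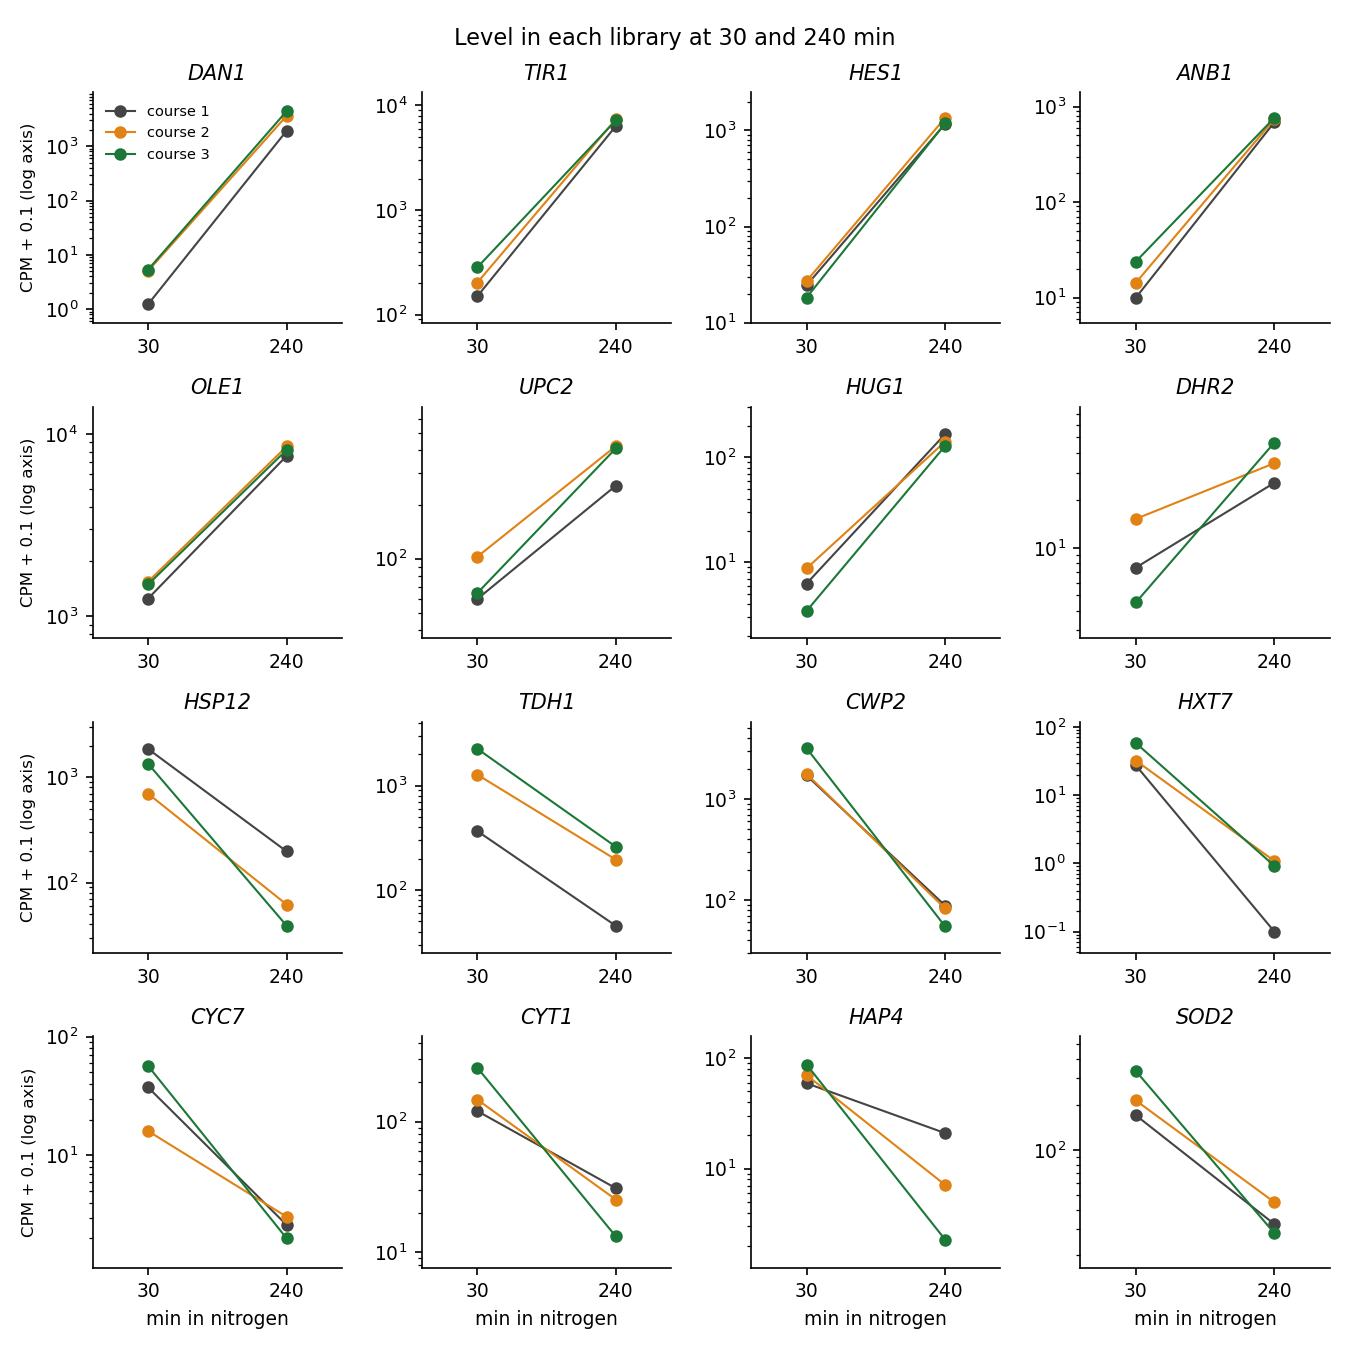
Level in each library at 30 and 240 min (horizontal axis) as CPM + 0.1 on a log axis, for 16 genes, with a line for each of the 3 courses. DAN1 rises from at most 5.24 to at least 1921 CPM, CWP2 falls from at least 1710 to at most 88.0 CPM, and the order of the courses differs from gene to gene.

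Sterol synthesis split by step. The early, mevalonate part of the pathway needs no oxygen, and 6 of its 9 genes were higher, with a median of 1.03 (3 of 9 without course 3). MVD1, mevalonate pyrophosphate decarboxylase, rose from 92.5, 105 and 74.2 CPM to 279, 329 and 313 CPM, with the times fully apart (log2 fold change 1.76 ± 0.16; edgeR adjusted p = 3.2e-08). ERG13, HMG-CoA synthase, had a log2 fold change of 1.63 ± 0.14. HMG2, the HMG-CoA reductase form used in low oxygen, went up by 1.18 ± 0.20, and the other form, HMG1, had 49.9, 82.9 and 124 CPM at 30 min and 47.9, 94.4 and 45.4 CPM at 240 min. Of 11 late enzymes that do not themselves use oxygen 5 were higher, with a median of 0.92. CYB5, a cytochrome gene placed in this list, rose 8.13-fold, from 10.9, 7.58 and 4.65 CPM to 54.4, 72.1 and 61.3 CPM, still below its 0 min mean of 142 CPM. ERG27 and ERG2 had log2 fold changes of 1.59 ± 0.12 and 1.32 ± 0.17. The count of 5 became 3 without course 1 and 3 without course 2.

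The 5 enzymes that use molecular oxygen did not share that rise. None was called higher, the median was 0.11, and with no fold minimum ERG25 passed as higher and ERG3 and ERG5 as lower. ERG11, lanosterol demethylase, stood at 878, 820 and 810 CPM at 30 min and 1085, 963 and 773 CPM at 240 min, so the groups overlapped. ERG5, the C-22 desaturase, was called lower, falling from 44.7, 49.6 and 46.1 CPM to 5.36, 17.4 and 3.54 CPM (log2 fold change -2.51 ± 0.36; edgeR adjusted p = 1.9e-05). Of 10 genes for sterol uptake and sterol esters 4 were higher and 1 lower, with a median of 0.51. HES1, an oxysterol-binding protein, went from 24.3, 27.0 and 18.1 CPM to 1169, 1351 and 1184 CPM, with little spread between courses at either time (log2 fold change 5.73 ± 0.32; edgeR adjusted p = 1.1e-11). AUS1, the sterol importer, rose from 40.4, 58.8 and 47.0 CPM to 576, 930 and 994 CPM (log2 fold change 4.07 ± 0.17), and the second importer PDR11 had a log2 fold change of 1.83 ± 0.28. The sterol acyltransferases moved apart, with ARE1 at 1.37 ± 0.16 and ARE2 at -2.04 ± 0.29.

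Of 10 genes for fatty acid synthesis and desaturation 4 were higher and 1 lower, with a median of 0.72. OLE1, the only delta-9 desaturase of this yeast and an oxygen-using enzyme, stood at 1250, 1548 and 1494 CPM at 30 min and at 7582, 8545 and 8176 CPM at 240 min, and all 3 courses lay close together (log2 fold change 2.50 ± 0.42; edgeR adjusted p = 0.0001). The fatty acid synthase genes FAS1 and FAS2 had log2 fold changes of 1.54 ± 0.27 and 1.66 ± 0.19, and FAS2 was not called without the course term (edgeR adjusted p = 0.10). ACC1, acetyl-CoA carboxylase, was at 1.25 ± 0.28. ELO1, which lengthens medium-chain fatty acids, was the member called lower, at -1.86 ± 0.24. Of 13 genes for phospholipids and inositol 4 were higher, among them INO1, inositol phosphate synthase (2.26 ± 0.31), and its activator INO2 (1.48 ± 0.19). In the sphingolipid list 1 of 15 was higher and 2 lower, where 4.71% of all features were called higher and 5.27% lower. YPC1, a ceramidase, fell from 41.7, 20.7 and 22.6 CPM to 1.07, 1.83 and 0.954 CPM (log2 fold change -4.55 ± 0.56), and SCS7, the oxygen-using sphingolipid hydroxylase, from 269, 429 and 444 CPM to 56.1, 66.2 and 58.5 CPM (log2 fold change -2.62 ± 0.18).

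Eisosomes are protein-lined furrows of the plasma membrane. NCE102 fell from 789, 699 and 733 CPM to 105, 105 and 122 CPM (log2 fold change -2.75 ± 0.19; edgeR adjusted p = 4.3e-10). Its paralog FHN1 rose in every course, from 53.3, 15.5 and 16.4 CPM to 933, 274 and 243 CPM (log2 fold change 4.05 ± 0.28; edgeR adjusted p = 5.4e-10). Course 1 was 3 or more times above the other courses for FHN1 at both times and yet gave a like change. FMP45 was lower at -3.40 ± 0.37, and LSP1 and SUR7 at -2.30 ± 0.21 and -1.22 ± 0.14, so that 4 of 8 members were lower and 1 higher.

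Electron transport chain genes, as a list, stood below their aerobic level at 30 min and lower still at 240 min. Of 25 genes for the electron transport chain 17 were lower and none higher, with a median of -1.71. Their summed level was 1598, 1740 and 2369 CPM at 30 min and 712, 847 and 777 CPM at 240 min, against 2883 to 3771 CPM at 0 min. CYT1, cytochrome c1, stood at 120, 147 and 258 CPM and then at 30.7, 25.1 and 13.1 CPM (log2 fold change -2.81 ± 0.39; edgeR adjusted p = 1.3e-05). COX4, a cytochrome oxidase subunit, had a log2 fold change of -2.47 ± 0.38. CYC1, the main cytochrome c gene, was near its floor at both times, at 3.60, 5.25 and 18.5 CPM and then at 3.57, 2.81 and 0.613 CPM, after a mean of 145 CPM at 0 min, and it missed the threshold (log2 fold change -1.99 ± 0.74; edgeR adjusted p = 0.051). Of 15 ATP synthase genes 4 were lower with a median of -0.75, but none was called without the course term. The TCA cycle gave 1 of 13, CIT1 (-1.66 ± 0.26), and the mitochondrial ribosome 2 of 66, with a median of -0.29. Over all features 5.27% were called lower. The 2 of the mitochondrial ribosome, MRP10 and MRP17, were not called without the course term, and MRP17 was not called without course 3. Median log2 fold changes at 30 over 0 min were -0.12 for ATP synthase, 1.06 for the TCA cycle and 0.27 for the mitochondrial ribosome. The last 2 lists had thus not fallen by 30 min. CIT1 had a mean of 47.2 CPM at 0 min, 363 CPM at 30 min and 115 CPM at 240 min.

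Isoforms that replace an aerobic partner moved in different directions. ANB1, the low-oxygen form of eIF5A, rose from 9.86, 14.2 and 23.7 CPM to 687, 740 and 764 CPM (log2 fold change 5.63 ± 0.46; edgeR adjusted p = 5.8e-09), while its partner HYP2 fell as given above. AAC3, an ADP/ATP carrier, rose by 1.99 ± 0.30, and its partner PET9 fell from 242, 545 and 687 CPM to 87.2, 176 and 93.7 CPM. COX5B had already reached 371, 221 and 200 CPM at 30 min from a mean of 21.0 CPM at 0 min, and stood at 290, 151 and 179 CPM at 240 min, with overlapping groups. CYC7, the second cytochrome c gene, had a mean of 4.34 CPM at 0 min and 60.0 CPM at 10 min. It stood at 37.3, 15.9 and 56.6 CPM at 30 min and at 2.50, 2.95 and 1.91 CPM at 240 min (log2 fold change -3.91 ± 0.72; edgeR adjusted p = 0.00027).

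Among the regulators of the oxygen response 2 of 13 were higher and 1 lower, where 4.71% of all features were called higher and 5.27% lower. With so few calls the list is not set apart from those shares. UPC2 rose from 59.7, 103 and 64.3 CPM to 255, 422 and 410 CPM (log2 fold change 2.24 ± 0.18; edgeR adjusted p = 5.4e-09). MGA2, which activates OLE1, was at 1.03 ± 0.23 and at 0.80 without course 3, below the 2-fold minimum. HAP4, the activating subunit of the Hap complex, fell from 59.0, 70.0 and 87.1 CPM to 20.8, 7.02 and 2.18 CPM, with course 3 lowest at 240 min (log2 fold change -2.84 ± 0.47; edgeR adjusted p = 9.3e-05). HAP1 had 185, 281 and 257 CPM at 30 min and 189, 333 and 303 CPM at 240 min. The ROX1 value depended on which courses entered. It stood at 16.4, 18.2 and 53.4 CPM at 30 min and at 22.0, 18.8 and 3.13 CPM at 240 min, and its log2 fold change was -1.0 ± 0.53 with all courses, 0.22 without course 3 and -1.84 without course 1, the last of which passed the threshold (edgeR adjusted p = 0.035). HEM13, the oxygen-using coproporphyrinogen oxidase of heme synthesis, rose from 219, 344 and 258 CPM to 1469, 2170 and 1972 CPM (log2 fold change 2.77 ± 0.21).

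Of 19 antioxidant enzymes 5 were lower and 1 higher (3 lower without course 3). SOD2, the mitochondrial superoxide dismutase, fell from 170, 213 and 333 CPM to 32.2, 44.9 and 28.0 CPM (log2 fold change -2.73 ± 0.30; edgeR adjusted p = 6.6e-07). GRX2, a glutaredoxin, fell by 2.25 ± 0.27 on the log2 scale, though it shares 47 bases with the neighbouring gene EMI1. The peroxiredoxin gene TSA2 was the one that rose, from 23.2, 25 and 53.1 CPM to 131, 230 and 181 CPM (log2 fold change 2.45 ± 0.31).

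Sugar transport and glycolysis also differed between the times. HXT7, a high-affinity hexose transporter with a near-identical copy in HXT6, had 27.1, 31.9 and 57.8 CPM at 30 min and 0, 0.983 and 0.817 CPM at 240 min, against a mean of 0.398 CPM at 0 min. It gave the largest fall of any feature called (log2 fold change -6.07 ± 0.76; edgeR adjusted p = 3.3e-06). Its level at 240 min was near the floor, so the size of that fold is uncertain. HXT4 and HXT5 were lower at -2.77 ± 0.36 and -2.41 ± 0.51, HXT5 not without the course term (edgeR adjusted p = 0.085). The low-affinity transporters moved the opposite way. HXT1 rose from 76.0, 221 and 99 CPM to 519, 687 and 484 CPM (log2 fold change 2.16 ± 0.26), and HXT3 had a log2 fold change of 1.71 ± 0.20.

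Of 18 genes for glycolysis and fermentation 5 were lower and none higher, with a median of -0.74. The isozymes TDH1 and TDH2 of glyceraldehyde phosphate dehydrogenase fell, TDH1 from 366, 1273 and 2252 CPM to 45.3, 195 and 259 CPM (log2 fold change -2.94 ± 0.31; edgeR adjusted p = 3.4e-07) and TDH2 from 4553, 9423 and 10135 CPM to 1170, 1896 and 1584 CPM (log2 fold change -2.31 ± 0.18). ENO1, an enolase isozyme, was at -2.38 ± 0.19. In all 3 genes course 1 was the lowest library at each time. PDC1, the main pyruvate decarboxylase, had overlapping groups and a log2 fold change of -0.16 ± 0.15. Among genes for growth without glucose, the activator ADR1 was at -2.32 ± 0.32, and GUT2, the mitochondrial glycerol phosphate dehydrogenase, at -2.35 ± 0.26.

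Nutrient genes were called in both directions, where over all features 4.71% were called higher and 5.27% lower. Of 11 phosphate genes 7 were lower, with a median of -1.15, and 3 without course 2. PHO5, the secreted acid phosphatase, went from 122, 316 and 167 CPM to 45.6, 51.7 and 46.7 CPM (log2 fold change -1.93 ± 0.35; edgeR adjusted p = 0.00022), and SPL2 and the vacuolar phosphatase PHO8 had log2 fold changes of -1.83 ± 0.21 and -1.54 ± 0.18. The phosphate transporter PHO84 was not called, at -0.45 ± 0.20. Of 20 iron genes 4 were lower, led by FET3, the oxygen-using iron oxidase (-2.26 ± 0.34), and its partner FTR1 (-1.28 ± 0.23). SIT1 was the 1 called higher, and it was not called without the course term, without course 2 or without course 3. Of 44 amino acid genes under Gcn4 3 were higher and 1 lower, with a median of 0.07, so the list did not stand out from all features. GLN1, glutamine synthetase, was the lower one at -1.75 ± 0.19. None of 17 amino acid permeases was higher and 5 were lower, among them DIP5 at -1.5 ± 0.33 (2 of 17 without course 2, and 2 without course 3). The transaminase ARO9 and the decarboxylase ARO10, which make fusel alcohols, fell by 3.09 ± 0.32 and 2.68 ± 0.48 on the log2 scale. GUA1 and IMD4 of guanine nucleotide synthesis were higher at 1.45 ± 0.20 and 1.30 ± 0.22, and SNZ1 of vitamin B6 synthesis at 1.94 ± 0.34. BNA1, which uses oxygen in NAD synthesis, was lower at -1.77 ± 0.14.

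Of 11 genes for ribonucleotide reductase and the DNA damage response 4 were higher and 1 lower, with a median of 0.42. RNR3, a damage-inducible large subunit, went from 5.14, 16.3 and 8.70 CPM to 81.0, 172 and 207 CPM (log2 fold change 3.95 ± 0.30; edgeR adjusted p = 2.3e-09), and the small subunits RNR2 and RNR4 had log2 fold changes of 1.35 ± 0.13 and 1.62 ± 0.16. HUG1, a damage-induced regulator of the enzyme, went from 6.16, 8.65 and 3.34 CPM to 166, 141 and 128 CPM (log2 fold change 4.61 ± 0.38). No member of the histone, proteasome or ER folding lists was called (0 of 10, 0 of 32 and 0 of 14; by adjusted p with no fold minimum 2 histone genes were lower, 4 proteasome genes higher, and 6 ER genes higher and 1 lower). Of 13 cyclins and inhibitors the 1 called was CLN1, at -1.10 ± 0.17 and at -0.92 without course 3, where 5.27% of all features were called lower. Of the 6 a-cell genes 2 were lower, MFA2 and AGA2, at -1.35 ± 0.27 and -1.33 ± 0.25, and MFA2 was not called without the course term (edgeR adjusted p = 0.18).

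Several large changes lay outside these lists. PBI1 rose from 11.4, 12 and 9.89 CPM to 777, 1155 and 1038 CPM (log2 fold change 6.45 ± 0.22; edgeR adjusted p = 1.2e-15). YSR3, a sphingoid base phosphatase gene, went from 12.2, 5.54 and 5.12 CPM to 211, 217 and 195 CPM (log2 fold change 4.95 ± 0.46). The uncharacterised YPR145C-A went from 4.73, 2.04 and 0 CPM to 197, 127 and 132 CPM. SET4, a SET-domain gene, was at 21.3, 1.75 and 2.62 CPM and then at 121, 90.9 and 92.4 CPM, with course 1 the highest at both times (log2 fold change 4.39 ± 0.69; edgeR adjusted p = 0.11 without the course term). On the other side, MDG1 fell from 135, 146 and 97.8 CPM to 5.96, 6.32 and 5.86 CPM (log2 fold change -4.38 ± 0.39; edgeR adjusted p = 2e-08). YRO2, a plasma membrane protein of the Hsp30 family, fell from 171, 250 and 207 CPM to 11.6, 10.3 and 11.3 CPM (log2 fold change -4.25 ± 0.44). The protein kinase gene RCK1, the transporter-like gene PNS1 and the dehydrogenase gene BDH2 fell 17.4-fold, 14.3-fold and 13.9-fold.

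Taken over all 8 times, the features called higher at 240 min were for the most part those that had fallen first. Their median log2 ratio to 0 min was -0.40 at 5 min, -0.65 at 10 min and -0.76 at 30 min, then -0.23 at 60 min, 0.14 at 120 min and 0.56 at 240 min. The features called lower had medians of 0.60, 0.83 and 1.06 at 5, 10 and 30 min, then 0.51, 0.09 and -0.45 at 60, 120 and 240 min. At 30 min 88 of the 295 higher features stood above their 0 min mean, and at 240 min 172 did. These ratios share the 30 and 240 min libraries with the calls and are a description. The lists followed different paths, since median log2 fold changes at 30 and 240 min over 0 min were 4.01 and 2.34 for stress genes, -2.56 and -1.67 for ribosome assembly, 0.72 and 6.58 for the DAN and TIR genes, and -0.66 and -2.53 for the respiratory chain.

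**Figure D5:**
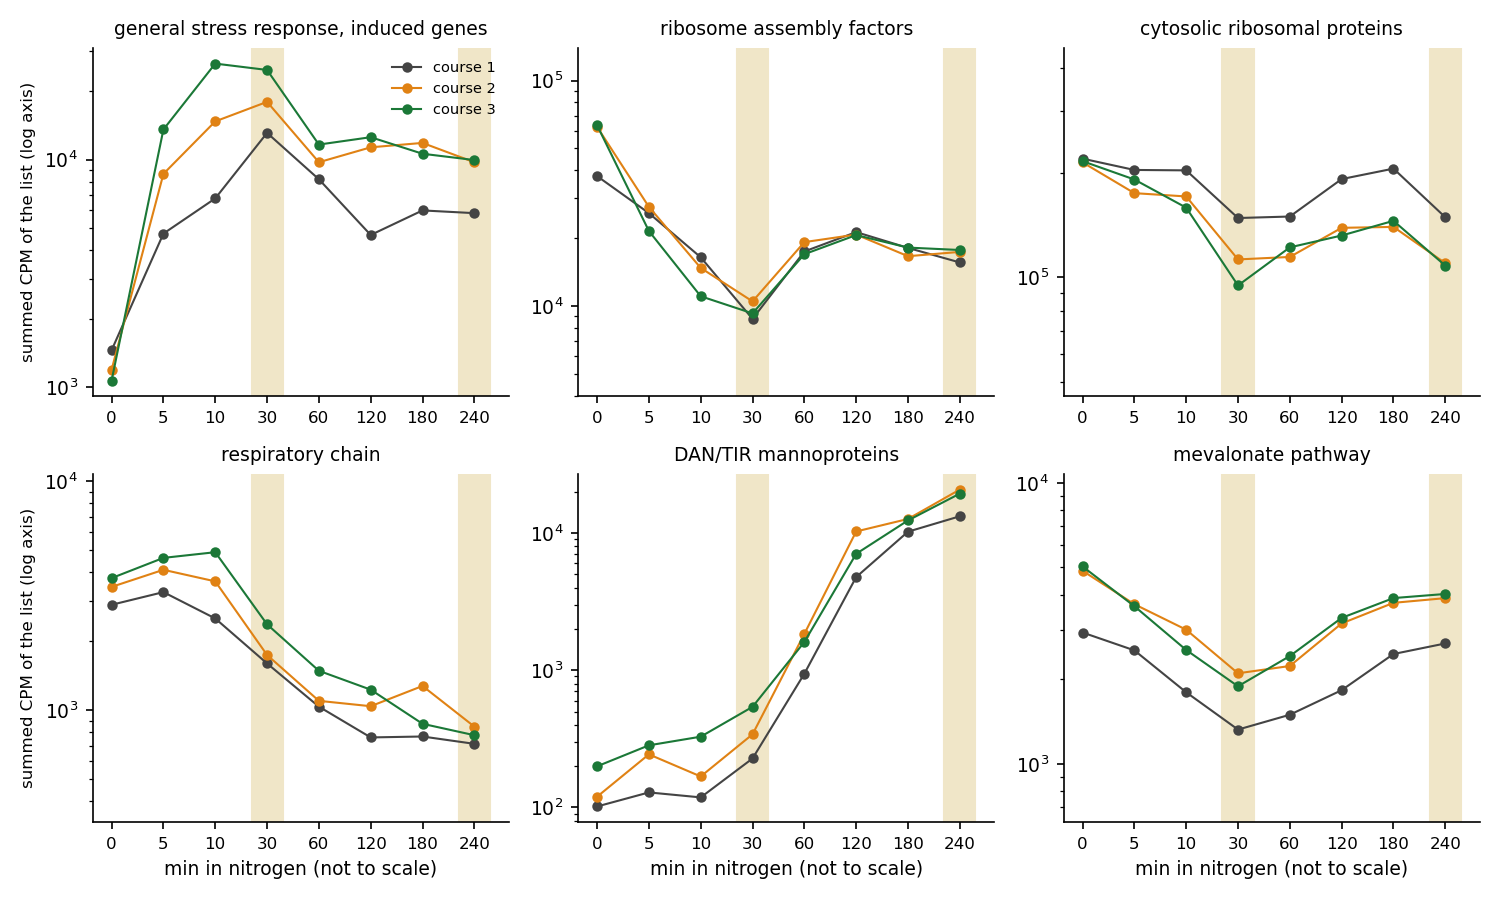
Summed CPM of 6 lists (log axis) at each of the 8 times (horizontal axis, min in nitrogen, not to scale), a line per course, with 30 and 240 min shaded. Stress genes are highest at 10 or 30 min in every course, ribosome assembly and mevalonate genes lowest at 30 min, and DAN/TIR genes highest at 240 min.

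Some genes that the study names as responding to hypoxia were not called between these times. NCE103, carbonic anhydrase, stood at 741, 447 and 295 CPM at 30 min and 931, 533 and 208 CPM at 240 min, after a mean of 28.0 CPM at 0 min. SDS24 stood at 125, 254 and 358 CPM and then at 126, 249 and 274 CPM, from 18.8 CPM at 0 min. In both the groups overlapped, and log2 fold changes were 0.03 ± 0.33 and -0.14 ± 0.32. FRT2 was at -0.30 ± 0.23 and EMI2, which fell in all courses but by 1.91-fold, at -0.94 ± 0.29. PRM10, by contrast, was called lower at -1.58 ± 0.43, though at -0.67 without course 3.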

How the data were processed

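The authors sequenced polyadenylated RNA (TruSeq libraries), aligned reads with TopHat2 to the S. cerevisiae R64 genome and counted reads per feature with HTSeq; versions are not given in the sources used here. The deposited values are raw read counts per feature, 1 table per library, with 7140 features (6048 with a locus tag in the RefSeq R64 annotation, which gave the names, and 5281 with a gene name). Summary lines of the counter stayed out of totals and tests. In courses 2 and 3 at 30 and 240 min, reads in no feature came to 4.28% to 5.60% of counted, ambiguous and unassigned reads together.

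Counts of all 24 libraries were fitted with edgeR 4.0.16 in R 4.3.3 (TMM factors, filterByExpr, quasi-likelihood F-test) with a term for each time and for the course, and the contrast was 240 minus 30 min. The common spread between libraries (edgeR's BCV) was 0.196 on 14 residual degrees of freedom. SE is the size of the log2 fold change divided by the square root of F. Calls needed an adjusted p under 0.05 over the 6262 features tested and 2-fold or more. The study's own test used 1 replicate; here all 3 courses entered. The script was tested on simulated counts before use.

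The course term rests on the study's description of a course as flasks of 1 starting culture. As a check, deviations from the group means at 30 and 240 min correlated within each number (r = 0.879, 0.650 and 0.559). Courses 2 and 3 also correlated with each other (0.600 and 0.642), so the term mainly sets course 1 apart.

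Gene lists and the comparison were chosen with earlier results of these data known. Named genes are the 15 called genes with the largest change in each direction (mean of at least 10 CPM, the same direction in 3 courses, PAU genes left out), up to 3 called members of each list with the largest change, and genes the study names. Other named genes, such as HXT1, HXT3, PDR11, ARE1, FAS1, ACC1, PET9, HMG1, LSP1, SUR7, DAN4, TIR2, PAU23, SED1, SIT1, RNR2, RPA190, PDC1, PHO84, ERG11, ERG25 and ERG3, were chosen after their values were seen. Of 53 lists, the 3 labelled deletions had too few reads to test. Promoters were picked as the called member with the largest change of 5 lists. The windows of the other picks, HES1 and CYT1, held no match to the Upc2 site or the CCAAT box and are not shown. DHR2 was picked for PAC and RRPE, and the stretch shown for it held no match to RRPE. Motif positions count from the first base of the annotated gene. DESeq2 1.42.0, other scalings, other filters and leaving out each course were alternatives.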

Additional observations from a re-analysis of the deposited data

Results flagged for a closer look

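Reads that align to several places are outside the counts used here. In courses 2 and 3, for which such alignments were tallied, their number per 100 counted reads was 103.605 and 113.533 at 30 min and 103.677 and 90.2645 at 240 min, above the 63.0 and 63.3 of the same courses at 0 min. An alignment is counted once for each place, so the values are not shares of reads. At 30 and 240 min the ranges overlap, and which features hold these reads was not tested.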

How the results depend on the processing

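Counts of higher and lower genes under all alternatives are given against 295 and 330. With adjusted p alone and no fold minimum they were 891 and 780, and ribosome assembly factors higher were 112 in place of 47. Without the replicate block, that is, with no course term, they were 200 and 188, and stress genes lower were 11 in place of 26; of 134 named genes called, 38 lost the call. Leaving out 1 course at a time gave 204 to 309 higher and 246 to 379 lower genes, 20 to 26 stress genes lower, 31 to 56 ribosome assembly factors higher, 15 to 18 respiratory genes lower, 3 to 6 mevalonate genes higher and 3 to 7 phosphate genes lower. The lowest of these came without course 3 for ribosome assembly and mevalonate genes, and without course 2 for phosphate genes. All 6 DAN and TIR genes were called in each of these fits. Fitting the 6 libraries alone gave 276 and 301, DESeq2 gave 301 and 346, and the other scalings and filters 279 to 317 and 309 to 343, so these stayed within 1.5 times. Of the named genes called, at most 6 lost the call under any of these and 7, 14 and 20 without courses 1, 2 and 3, and none changed direction. The cause was not tested in any case. Of genes not called, HMX1 ranged from -2.53 to 1.07, ROX1 from -1.84 to 0.22, NCE103 from -0.11 to 0.27 and DMC1 from -1.43 to 0.62 when 1 course was left out. DMC1 stood at -0.27 with the 6 libraries alone, -0.00072 with RLE factors, -0.14 with DESeq2 and -0.016 with no filter, against 0.01. The depth limits genes with few reads, such as the PAU family, and 878 features were not tested.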

Other observations

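The lists not described above held few calls. Over all features 4.71% were called higher and 5.27% lower. With so few calls in each, these lists are not set apart from those shares here. Of 8 zinc genes 2 were higher at 240 min, with the membrane receptor gene IZH2 at a log2 fold change of 1.83 ± 0.29, and none lower. The other, ZPS1, was not called without the course term or without course 2. Of 18 genes for sulfate and methionine 2 were higher and 1 lower, and without the course term none was called. Of 23 genes for B vitamins 3 were higher. Among these THI12 was not called without the course term or without any 1 course, and THI22 not without course 3. Of 15 for purine synthesis 2 were higher and 1 lower (ADE12 at -1.11 ± 0.17, not called without the course term). Of 9 for heme 2 were higher and none lower. Of these HEM14, which shares 489 bases with BUD25, was not called without course 3. Autophagy gave 2 of 37 higher, ATG22 at 1.28 ± 0.19 and ATG5, which was not called without the course term or without course 1. Early meiosis gave 2 of 10 higher, of which REC8 was not called without the course term or without any 1 course. Of 14 genes for the glyoxylate cycle and gluconeogenesis 4 were lower, and 2 without the course term, and of 13 peroxisomal and carnitine genes 2 were lower. In one of these, CRC1, the reads were too few for a fold to be given, at 2.05, 2.72 and 0 CPM and then 0.119, 0 and 0 CPM.

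YDR133C, a feature with no locus in the annotation used here, was lower by a log2 fold change of -4.72 ± 0.46, and its number is next to that of CCW22 (YDR134C), which was lower by -4.64 ± 0.33. In all, 13 called features had no annotated locus tag. Of the features called, 34 higher and 72 lower had overlapping groups of libraries, and of all 6262 tested 13.2% had every 240 min library above every 30 min library and 11% every one below. HMX1, heme oxygenase, differed widely between courses, at 0.719, 4.47 and 28.6 CPM at 30 min and 5.36, 5.2 and 0.886 CPM at 240 min. It was not called with all courses, and was called lower without course 1 (log2 fold change -2.53; edgeR adjusted p = 0.034).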
